A study of Mus musculus with 6 samples.

Results

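The Cyp3a subfamily of cytochrome P450 genes was followed in mouse liver through all 9 probes of the array whose gene name was a listed member. The list held 7 genes (Cyp3a11, Cyp3a13, Cyp3a16, Cyp3a25, Cyp3a41a, Cyp3a44 and Cyp3a59), and 6 of them had such a probe, since none was named Cyp3a41a. The array had 55681 distinct probes apart from controls, of which 22377 were compared, among them 8 of the 9 Cyp3a probes. The one left out was the Cyp3a44 probe, which was well above background on none of the 6 arrays. Cyp3a41b and Cyp3a57 are other family members outside the list, each with 1 probe, and they are given beside it because the probe named Cyp3a41b also lists transcripts of Cyp3a41a.

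Whole liver was taken from C57BL6/J mice (an inbred strain) that had been dosed by mouth 2 h earlier. The CBZ group of 3 mice received 250 mg/kg of a compound that the labels name only as CBZ, and the DMSO group of 3 mice received the solvent dimethyl sulfoxide. No mutant allele or transgene is named for either group, and their sex and age are not stated in the labels. Total RNA of each liver was labelled with Cy3 and hybridised to its own 1-colour array, so each replicate is a separate mouse.

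Cyp3a enzymes are haem proteins of the endoplasmic reticulum that oxidise a wide range of drugs, steroids and bile acids. They take electrons from cytochrome P450 reductase, and in liver their genes are classical targets of the xenobiotic receptors PXR (gene Nr1i2) and CAR (gene Nr1i3). Cyp3a11 is the main drug-inducible member in mouse liver and is often treated as a counterpart of human CYP3A4. Cyp3a13 is expressed in liver and intestine, Cyp3a16 is known from fetal and newborn liver, and Cyp3a41 and Cyp3a44 are female-predominant in adult mouse liver.

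The probes lie on chromosome 5 and, per the array design, on the mm9 build. They were 60 bases long, and what each can tell apart depends on its sequence, so the sequences that bear on this are shown first. Probes were compared with each other and not with transcripts, so which transcripts a probe binds was not tested. One Cyp3a11 probe (A_51_P355301, chr5:146672058-146673925, minus strand) begins at base 1104 of the transcript, in the coding sequence. Its 60 bases span 1868 bases of genome, so it crosses an intron, and it lists transcripts of 4 genes, Cyp3a11, Cyp3a41a, Cyp3a41b and Cyp3a44. It is called the shared Cyp3a11 probe below. The coding probe of Cyp3a59 (A_55_P2028046, chr5:146920638-146920697, plus strand) begins at base 1349 and covers the haem-binding loop, where the capitals mark the codon of the cysteine that binds the haem iron. The probes of Cyp3a41b and Cyp3a44 share a run of 23 bases, in capitals, which was the longest run common to any pair of the 11 Cyp3a probes. The next longest was 9 bases. Of these last 2 probes 30 bases are shown, bases 8 to 37 for Cyp3a41b (A_55_P2001780, whole probe chr5:146319794-146319853, minus strand) and bases 1 to 30 for Cyp3a44 (A_52_P366803, whole probe chr5:146585717-146585776, minus strand).
Cyp3a11 shared probe: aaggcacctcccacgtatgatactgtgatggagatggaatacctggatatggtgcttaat
Cyp3a59 coding probe: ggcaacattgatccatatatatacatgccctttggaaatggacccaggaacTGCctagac
Cyp3a41b probe: CACTGAGCTTTCTCAGTGTCTGTacaggtt
Cyp3a44 probe: CACTGAGCTTTCTCAGTGTCTGTgcaagtt

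The other listed probes each name 1 gene. The second Cyp3a11 probe (A_55_P2121225, chr5:146666237-146666296, minus strand) begins at base 1939 and is called the 3′ probe. The second Cyp3a59 probe (A_55_P2039044, chr5:146924485-146924544, plus strand) begins at base 1622 and is likewise called the 3′ probe. Cyp3a13 has an upstream probe at base 1644 (A_55_P2185821, chr5:138335412-138335471, minus strand) and a downstream probe at base 2791 (A_55_P2185826, chr5:138334265-138334324, minus strand). Cyp3a25 (A_55_P2169259, chr5:146788879-146788938, minus strand) and Cyp3a16 (A_51_P482051, chr5:146197274-146197333, minus strand) have 1 probe each. Outside the list, the Cyp3a57 probe (A_55_P2162880) lies at chr5:146151322-146151381 on the plus strand.

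None of the 8 Cyp3a probes compared was called higher or lower in CBZ livers at 2 h. Their log2 fold changes, CBZ minus DMSO, ran from -0.09 for the Cyp3a59 3′ probe to 0.29 for Cyp3a16, and the signals of the 2 groups overlapped on all 8. By limma with Benjamini-Hochberg adjustment over the 22377 probes, 0 of 8 passed an adjusted p of 0.05 and 0 of 8 had an unadjusted p under 0.05. Over the whole array 14 probes passed, 12 higher and 2 lower in CBZ, which is 0.0626% of those compared (0.0536% higher and 0.00894% lower). At such a share, 0 of 8 says little about the members. Smaller changes are not excluded, since the 95% interval of the fold for Cyp3a16 reached 1.56. Below, rose and fell mean an adjusted p under 0.05. Groups that did not overlap were found on 13.3% of all probes, 6.26% with CBZ higher and 7% with CBZ lower, and an unadjusted p under 0.05 on 9.39%. The array-wide count was 31, 0 and 1 without CBZ replicates 1, 2 and 3 in turn, and 4, 5 and 0 without DMSO replicates 1, 2 and 3. Where it was 0 by limma, 2183 probes (without CBZ replicate 2) and 2831 probes (without DMSO replicate 3) still had an unadjusted p under 0.05. In each of these 6 fits 0 Cyp3a probes passed. Without DMSO replicate 3, 1 of the 8 had a limma unadjusted p under 0.05, and 0 in the other fits.

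Values below are signals in units of the array's 75th percentile, a linear scale on which levels of different probes cannot be set against each other. On the 3′ probe of Cyp3a11 the signal was 621, 641 and 578 in the CBZ livers of replicates 1, 2 and 3, against 584, 531 and 598 in the DMSO livers. The lowest CBZ value lay below 2 of the DMSO values, so the groups overlapped. The means were 613 ± 31.8 in CBZ and 571 ± 35.7 in DMSO (SD, n = 3 each). The log2 fold change was 0.10 ± 0.12 (moderated SE), with an adjusted p of 0.929 from limma. The 95% interval of the fold, CBZ over DMSO, was 0.883 to 1.31, which, like those below, is not adjusted for multiple testing. No spot on the arrays was saturated, and the processed signal of this probe was between 92222 and 114166 intensity units.

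The shared Cyp3a11 probe had signals of 227, 225 and 242 in CBZ livers, against 229, 196 and 193 in DMSO livers. DMSO replicate 1 lay among the CBZ mice, and the other DMSO mice lay below them. Means were 231 ± 9.30 in CBZ and 206 ± 20.0 in DMSO (SD, n = 3 each), a log2 fold change of 0.17 ± 0.13 with a limma adjusted p of 0.844 and a 95% interval of the fold from 0.915 to 1.38. The 2 Cyp3a11 probes ordered the mice differently, since CBZ replicate 3 was the highest mouse on the shared probe and the lowest of its group on the 3′ probe.

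Cyp3a25, another hepatic member of the subfamily, had signals of 147, 189 and 153 in CBZ livers, against 140, 144 and 163 in DMSO livers. CBZ replicate 2 stood above the other 5 mice, which overlapped. The log2 fold change was 0.12 ± 0.15 (limma adjusted p = 0.929), and it was 0.00909 without CBZ replicate 2. The 95% interval of the fold was 0.864 to 1.37.

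Cyp3a59 had signals of 76.6, 83.3 and 72.4 in CBZ livers, against 80.8, 76.1 and 78.4 in DMSO livers, on the coding probe. The CBZ mice held both the highest and the lowest value, around means of 77.4 ± 5.48 in CBZ and 78.4 ± 2.32 in DMSO (SD, n = 3 each). The log2 fold change was -0.02 ± 0.12, with a 95% interval of the fold from 0.811 to 1.20 and a limma adjusted p of 0.987. Its 3′ probe had signals of 4.82, 6.23 and 4.60 in CBZ livers, against 4.57, 5.46 and 6.71 in DMSO livers. There the DMSO mice held both extremes, and the log2 fold change was -0.09 ± 0.18 (limma adjusted p = 0.963), with a 95% interval of the fold from 0.702 to 1.25. On both Cyp3a59 probes CBZ replicate 2 was the highest and CBZ replicate 3 the lowest of the CBZ mice.

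Cyp3a13 lies apart from the other members on the chromosome, as the coordinates above show. Its upstream probe had signals of 30.4, 39.6 and 30.6 in CBZ livers, against 28.4, 32.7 and 27.8 in DMSO livers. The downstream probe had 9.46, 11.5 and 7.30 in CBZ livers, against 8.12, 9.17 and 8.71 in DMSO livers. On both probes CBZ replicate 2 was the highest of all mice and DMSO replicate 2 the highest of its group. The log2 fold changes were 0.17 ± 0.15 upstream and 0.10 ± 0.18 downstream, with limma adjusted p-values of 0.883 and 0.962. The 95% intervals of the fold were 0.886 to 1.43 upstream and 0.809 to 1.41 downstream. Without CBZ replicate 2 the log2 fold changes were 0.0457 upstream and -0.0595 downstream.

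Cyp3a16 had the largest log2 fold change of the 8 listed probes compared. Its signals were 21.3, 17.4 and 18.6 in CBZ livers, against 14.7, 13.9 and 18.6 in DMSO livers. DMSO replicate 3 lay among the CBZ mice, and the other DMSO mice lay below all of them. The means were 19.1 ± 1.98 in CBZ and 15.7 ± 2.54 in DMSO (SD, n = 3 each), and the log2 fold change was 0.29 ± 0.16. The 95% interval of the fold was 0.953 to 1.56, and the limma adjusted p of 0.672 was 0.325 without DMSO replicate 3.

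Cyp3a41b, outside the list, is the nearest that the array comes to Cyp3a41a, since its probe lists both genes. Its signals were 6.70, 6.44 and 6.50 in CBZ livers, against 5.15, 4.52 and 6.61 in DMSO livers. As for Cyp3a16, DMSO replicate 3 was the highest and DMSO replicate 2 the lowest of its group. The probe had a log2 fold change of 0.29 ± 0.16 with a limma adjusted p of 0.680. The Cyp3a57 probe had signals of 40.0, 50.7 and 42.6 in CBZ livers, against 42.6, 40.4 and 42.2 in DMSO livers, with CBZ replicate 2 above the rest. Its log2 fold change was 0.08 ± 0.14 (limma adjusted p = 0.956).

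Cyp3a44 had a processed signal of 36.5 intensity units in CBZ replicate 1 and between 6.66 and 9.23 units in the other 5 mice. It was not well above background on any of the 6 arrays, so no fold is given. The value in CBZ replicate 1 was higher than in the other mice but was not marked as well above background either.

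**Figure D1:**
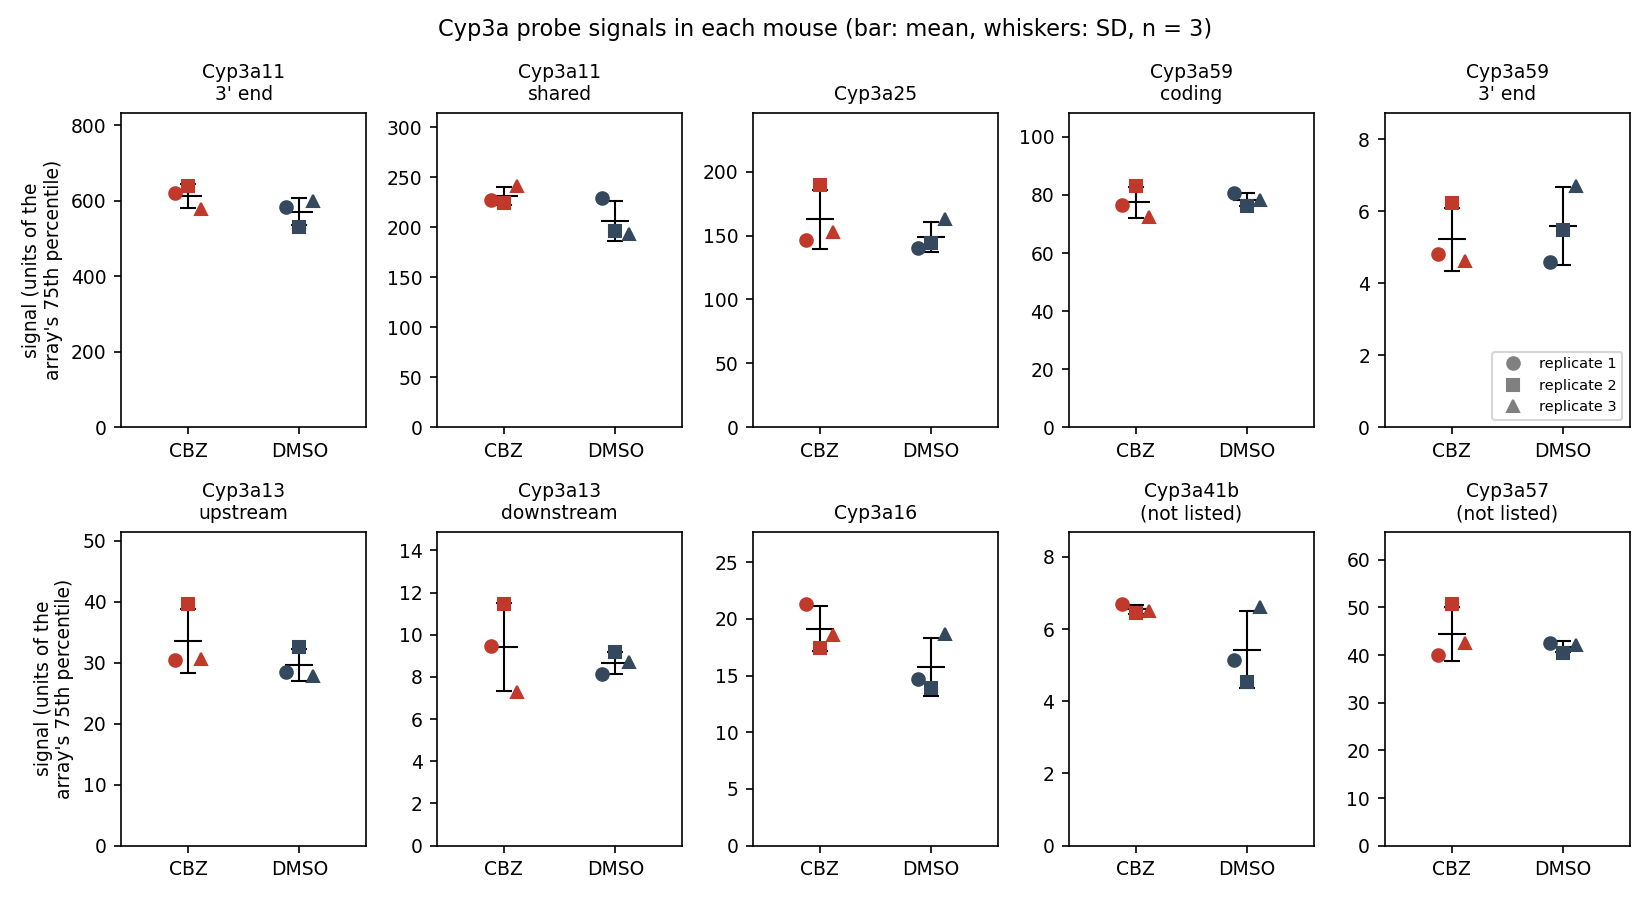
Signal of each Cyp3a probe in units of the array's 75th percentile (linear axis from 0, its own scale in each panel), with CBZ mice in red on the left and DMSO mice in blue on the right. Each point is 1 mouse with its replicate number as the symbol, and the bar and whiskers are the mean and SD of 3 mice. The groups overlap in all 10 panels, and the square of CBZ replicate 2 is the highest point for the Cyp3a11 3′ probe, the Cyp3a59 coding probe, Cyp3a25, Cyp3a57 and both Cyp3a13 probes.

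Across the 8 probes the median log2 fold change was 0.113, with 6 higher and 2 lower in CBZ. Over all probes compared it was -0.006, with 10888 higher and 11489 lower, and quartiles at -0.12 and 0.13. The median moved with the scaling. With each array scaled to its median the Cyp3a median was 0.0133, 5 probes were higher and 3 lower, and the median of all probes was -0.106. With quantile normalisation it was 0.144, with 7 higher and 1 lower. Without CBZ replicate 2 it was 0.0274. The moderated standard error had a median of 0.149 over the Cyp3a probes and 0.156 over all probes. In whole liver, fewer cells of a type and less RNA per cell cannot be told apart.

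**Figure D2:**
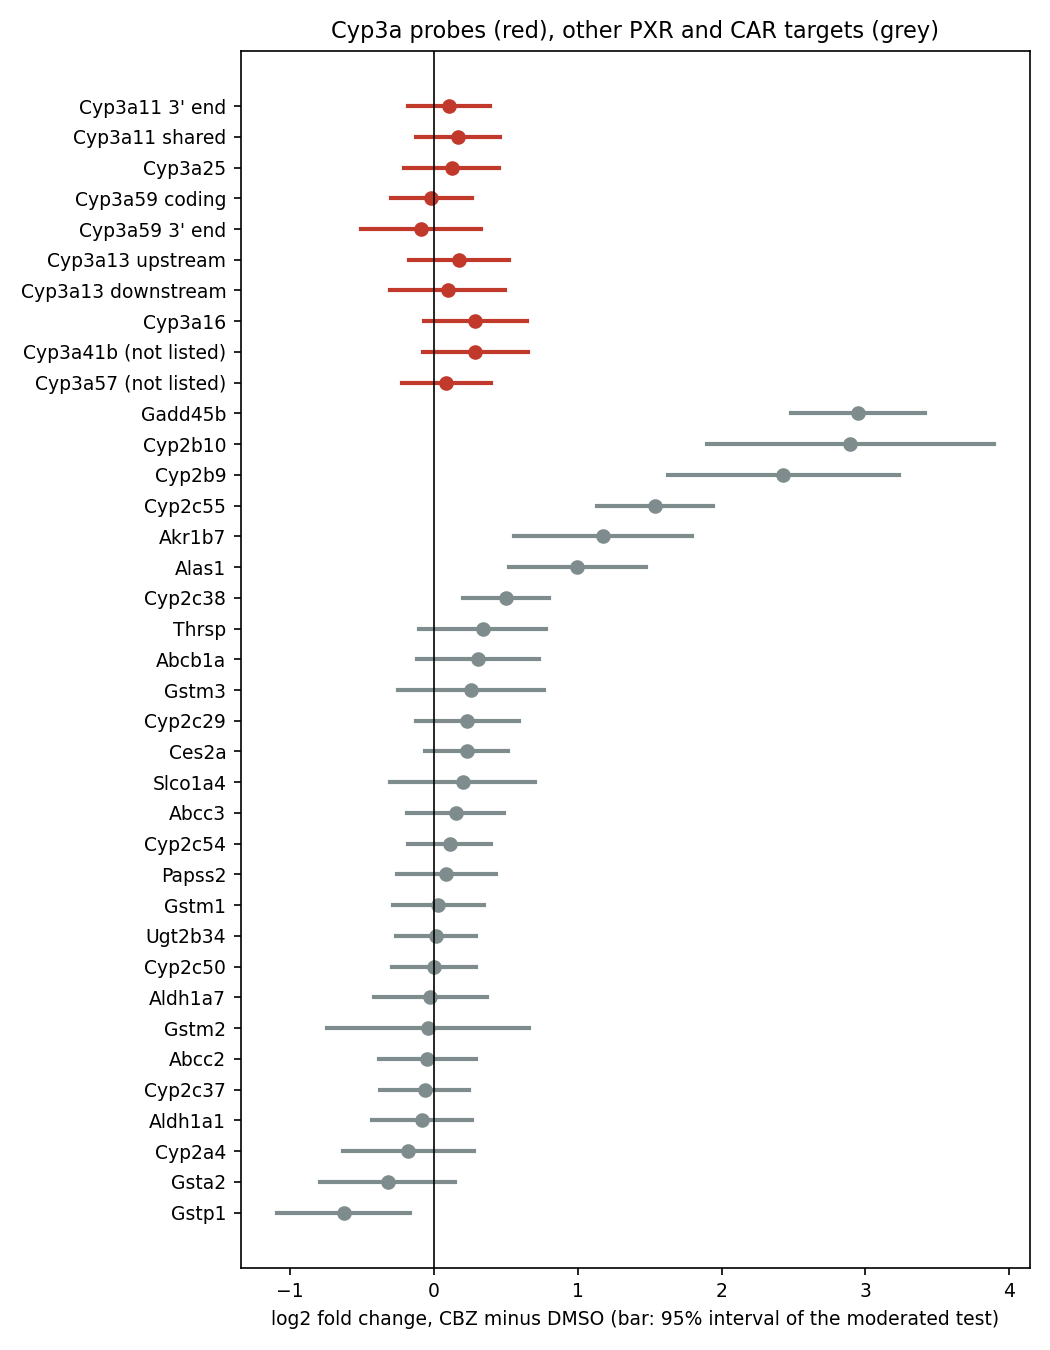
Log2 fold change, CBZ minus DMSO, of each Cyp3a probe (red) and of the 27 compared targets of PXR and CAR outside the family, each by its brightest probe and sorted by value (grey), with the 95% interval of limma's moderated test, not adjusted for multiple testing, as a bar. All 10 red bars cross 0, and the grey points run from -0.63 for Gstp1 to 2.95 for Gadd45b, with 18 above 0 and 9 below.

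Mice of the same group differed in their Cyp3a signals. The median deviation from the DMSO mean over the 8 probes was 0.08, 0.17 and 0.03 on the log2 scale in CBZ replicates 1, 2 and 3, against -0.07, -0.04 and 0.04 in DMSO replicates 1, 2 and 3. CBZ replicate 2 lay above the DMSO mean on all 8 probes, by 0.09 to 0.42. CBZ replicate 1 ranged from -0.19 on the Cyp3a59 3′ probe to 0.45 on Cyp3a16, and CBZ replicate 3 from -0.26 to 0.25. The same deviations over all probes compared had medians between -0.02 and 0.03 in each mouse. CBZ replicates 2 and 3 lay in row 2 of the slide, whereas CBZ replicate 1 and the 3 DMSO arrays lay in row 1. With the row as a covariate, which compares CBZ replicate 1 with the DMSO mice, the Cyp3a median was 0.0827, with 5 probes higher and 3 lower. Row 2 held CBZ arrays only, so no value could be had within it.

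**Figure D3:**
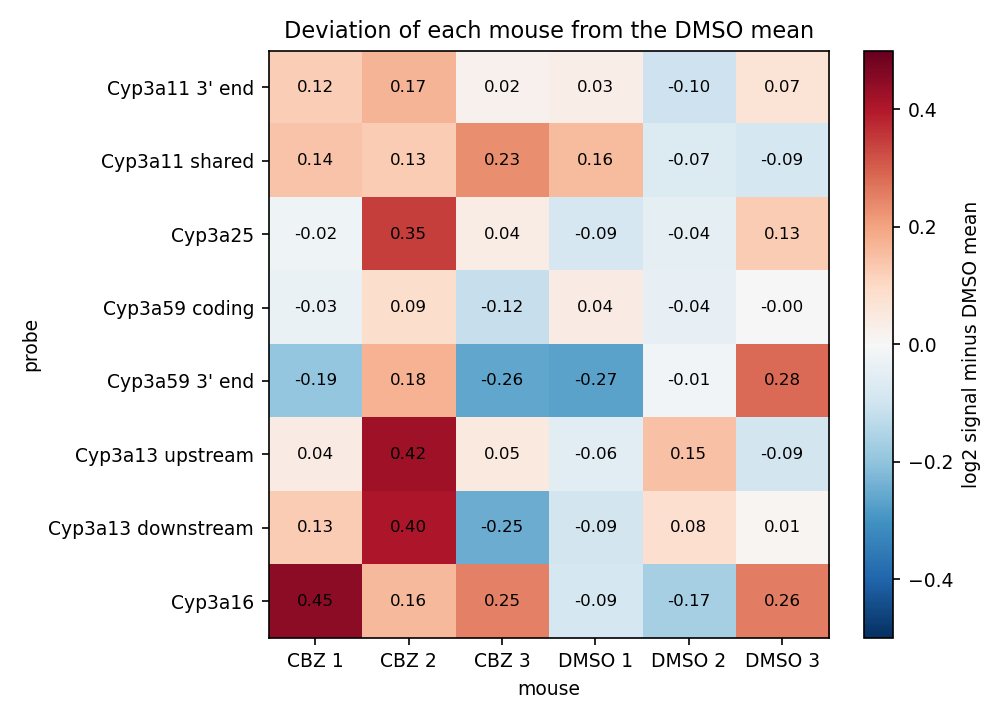
Log2 signal of each mouse (columns, CBZ mice left of DMSO mice) minus the DMSO mean, for the 8 Cyp3a probes compared (rows), with red above and blue below that mean. The column of CBZ replicate 2 is red in every row, from 0.09 to 0.42, while the other 5 columns hold both colours.

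None of the electron partners of the P450s rose or fell. The list held 5 genes, and their median log2 fold change was -0.02, with 1 higher and 4 lower. Por, the cytochrome P450 reductase, was at -0.02 ± 0.15, and Cyb5a and Cyb5b, cytochromes b5 that assist some P450 reactions, were at -0.02 ± 0.13 and 0.03 ± 0.14. Cyb5r3, the cytochrome b5 reductase, was at -0.03 ± 0.13, and Pgrmc1, a haem-binding partner of P450s, was at -0.17 ± 0.15. Their limma adjusted p-values were 0.879 or higher.

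Of 20 receptors and factors known to act on Cyp3a genes, 19 were compared, 0 rose and 0 fell, and 10 were higher and 9 lower with a median of 0.05 (9 and 10, with a median of -0.05, under median scaling). Groups did not overlap for 7 of the 19, with CBZ higher for 4 and lower for 3, against 13.3% of all probes. Of the 7, 0 passed the test. The smallest adjusted p was that of Cebpb, a transcription factor of the acute-phase response, with signals of 58.8, 76.8 and 73.3 in CBZ livers, against 49.0, 49.9 and 48.3 in DMSO livers. Its log2 fold change was 0.50 ± 0.14 (limma adjusted p = 0.305). Next came Foxa3, a liver forkhead factor, at -0.37 ± 0.14 (adjusted p = 0.467), Nr1h4, the bile acid receptor FXR, at 0.29 ± 0.12 (adjusted p = 0.509), and Cebpd at 0.46 ± 0.24 (adjusted p = 0.628), all by limma. Vdr, the vitamin D receptor, was not well above background on any array.

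The xenobiotic receptors themselves were measured on all 6 arrays and are named here for their role, chosen after their values had been seen. Nr1i2 had signals of 29.8, 29.3 and 29.5 in CBZ livers, against 27.2, 19.3 and 27.9 in DMSO livers, and a log2 fold change of 0.27 ± 0.16 (limma adjusted p = 0.729). Nr1i3 had 34.4, 46.9 and 39.0 in CBZ livers, against 33.9, 29.9 and 34.0 in DMSO livers, with a log2 fold change of 0.29 ± 0.15 (limma adjusted p = 0.642). For both receptors the CBZ mice lay above the DMSO mice without overlap, which was also found on 6.26% of all probes. Neither change passed the test. On the list they come from, groups without overlap had CBZ higher for 4 genes and lower for 3.

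Among other targets of PXR and CAR, Gadd45b and Cyp2c55 rose in the same livers. Of 34 genes on that list, drawn up with earlier results of these data known, 27 were compared, each by its brightest probe. Of the 27, 2 rose and 0 fell, where 0.0536% of all probes compared rose and 0.00894% fell. By value 18 were higher and 9 lower with a median log2 fold change of 0.15 (15 higher and 12 lower, with a median of 0.05, under median scaling). Between 0 and 6 of the 27 rose over all the settings tried. Groups did not overlap for 9 of the 27, with 8 higher and 1 lower in CBZ, where 6.26% of all probes did so with CBZ higher and 7% with CBZ lower. Gadd45b, a stress-response gene and CAR partner, had signals of 16.0, 18.8 and 28.1 in CBZ livers, against 2.62, 2.49 and 2.80 in DMSO livers. Its log2 fold change was 2.95 ± 0.20 (limma adjusted p = 0.00565), and the call was lost without CBZ replicate 2 or DMSO replicate 3 (adjusted p = 0.0859 and 0.109) and without the filter on dim probes (adjusted p = 0.307). Cyp2c55, a P450 of arachidonic acid metabolism, had 6.31, 5.17 and 4.17 in CBZ livers, against 1.89, 1.88 and 1.56 in DMSO livers. It rose by a log2 fold change of 1.54 ± 0.18 (limma adjusted p = 0.0333), a call that held without CBZ replicate 1 and was lost without any of the other 5 mice (adjusted p from 0.0556 to 0.244). It was also lost with quantile normalisation, without the filter and with the slide row as a covariate (adjusted p = 0.0653, 0.526 and 0.0637).

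Cyp2b10, the P450 most used as a readout of CAR, had signals of 509.9, 486 and 199.5 in CBZ livers, against 81.2, 28.5 and 52.0 in DMSO livers. The groups were far apart, but the spread within each was wide, and the log2 fold change of 2.89 ± 0.44 had a limma adjusted p of 0.0660. Cyp2b9, a close relative, had 4.30, 3.63 and 1.71 in CBZ livers, against 0.796, 0.493 and 0.435 in DMSO livers, a log2 fold change of 2.43 ± 0.35 (limma adjusted p = 0.0656). Both passed with normexp background correction, with median scaling, with the authors' deposited table and with the filter on all 6 arrays. Alas1, the rate-limiting enzyme of haem synthesis, is named after its values were seen, since its probes differed. Its brightest probe, counted above, had signals of 479, 537 and 481 in CBZ livers, against 322, 269.5 and 179 in DMSO livers, and its log2 fold change of 1.00 ± 0.21 did not pass (limma adjusted p = 0.172), except with normexp background correction (adjusted p = 0.0197). The second Alas1 probe (A_55_P1959985), not counted above, rose by a log2 fold change of 2.02 ± 0.17 (limma adjusted p = 0.00823). That call was lost without CBZ replicate 2, CBZ replicate 3 or DMSO replicate 3 (adjusted p = 0.105, 0.0584 and 0.109), without the filter on dim probes (adjusted p = 0.432) and with the slide row as a covariate (adjusted p = 0.0638).

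Among the other P450s of the Cyp1, Cyp2 and Cyp4 families, 53 of 71 genes were compared, of which 1 rose (Cyp2c55) and 0 fell. Over all probes compared 0.0536% rose and 0.00894% fell. The list had 21 genes higher and 32 lower in CBZ, with a median log2 fold change of -0.06. With median scaling 16 were higher and 37 lower, with 0 to 3 genes rising over the settings. Its largest value was that of Cyp2b10 and its smallest -0.73, that of Cyp4a12a.

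Some Cyp3a members differ between the sexes in mouse liver, so sex-linked and sex-biased genes were read in the same arrays. Ddx3y and Eif2s3y, both Y-linked, were well above background on all 6 arrays (log2 fold changes of 0.04 ± 0.13 and -0.05 ± 0.13), and Xist, expressed from the inactive X, on none. Kdm5d was detected on no array and Uty on 1 CBZ array. Of 10 male-biased liver genes, 0 rose and 0 fell (1 fell with normexp background correction, median scaling, the authors' deposited table and robust eBayes), and all 10 were lower in CBZ, with a median log2 fold change of -0.49. The 10 were also lower under each other scaling, and 9 of 10 were lower without CBZ replicate 3 or DMSO replicate 2. The 4 with the smallest adjusted p were C6, a complement component (-0.90 ± 0.19), Cyp4a12a (-0.73 ± 0.20), Cyp4a12b (-0.67 ± 0.19) and Cyp7b1, an oxysterol hydroxylase (-1.08 ± 0.33), with limma adjusted p-values between 0.185 and 0.336. Of 12 female-biased genes 8 were compared, 0 rose and 0 fell (2 rose with median scaling and the authors' deposited table, and 1 with normexp background correction, the filter on all 6 arrays and the replicate block), and 6 were higher and 2 lower with a median of 0.20. With CBZ replicate 1 left out 4 were higher and 4 lower, with a median of -0.02, and with median scaling 5 were higher and 3 lower. The part of sex-biased regulation in the Cyp3a16 and Cyp3a41b values was not tested.

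Zonation and cell makeup were read from marker lists. Of 11 pericentral hepatocyte genes compared, 0 rose and 0 fell, with a median of -0.05 and log2 fold changes from -0.78 to 0.26. Of 14 periportal ones 0 rose and 0 fell, with a median of -0.02 and values from -0.12 to 0.77. With normexp background correction 1 pericentral gene fell and 1 periportal gene rose. The same counts were found with robust eBayes and an intensity trend. The summed signal of 7 hepatocyte markers was 5374 to 6203 in CBZ livers, against 5384 to 5752 in DMSO livers. Kupffer cell markers summed to 163 to 198 in CBZ livers, against 125 to 281 in DMSO livers. The sums of the endothelial, stellate, blood and cholangiocyte lists also overlapped. Each sum is weighted towards its brightest probes. Of 7 stellate markers 6 were higher and 1 lower in CBZ, with a median log2 fold change of 0.32. With median scaling 5 were higher and 2 lower, with a median of 0.22. None of them passed (smallest limma adjusted p = 0.481). Of the enterocyte list, which matters because Cyp3a genes are active in gut, Vil1, Cdx2 and Lct were not well above background on any array, Sis was on 2 arrays of each group, and Fabp2 and Apob were on all 6, Apob being also a hepatocyte marker.

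Genes whose pattern over the 6 mice was most like that of 2 Cyp3a probes were taken by the smallest mean absolute difference of log2 signals, each centred on its own mean, among 11646 genes with a symbol. For the Cyp3a11 3′ probe these were Pmf1 (0.0127), Aqr (0.0156), Baz2b (0.0217), Gtf3c6 (0.0222) and Med12 (0.0229), where the median of all genes was 0.16. For the Cyp3a13 upstream probe they were Zfp143 (0.0343), Cdk17 (0.0464), Cab39l (0.0465), Creb3l3 (0.0479) and Tor1b (0.0506), with a median of 0.18. The range of the Cyp3a11 probe over the 6 mice was 0.27 and that of the Cyp3a13 probe 0.51 on the log2 scale. None of the 10 genes passed the test between groups. They were chosen for likeness to probes that did not pass, so this adds no separate information.

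The promoters of the family fell into groups by sequence. They were taken from RefSeq on GRCm38.p6, 250 bases before to 50 after each gene's start, and all 7 listed genes as well as Cyp3a41b and Cyp3a57 had an entry. Identity was computed from the edit distance, the fewest single-base changes, insertions and deletions between a pair, relative to 300 bases. It is not the share of matching bases in an alignment. Cyp3a16, Cyp3a41a, Cyp3a41b and Cyp3a44 formed one group, for example 93.3% identical between Cyp3a16 and Cyp3a44 and 97.3% between Cyp3a41a and Cyp3a41b. Cyp3a25, Cyp3a57 and Cyp3a59 formed another, with 95.7% between Cyp3a25 and Cyp3a59. Cyp3a11 was 69.3% to 74.3% identical to the first group, and Cyp3a13 was at most 54.0% identical to any other member. No promoters outside the family were compared, so whether 54.0% exceeds the value of unrelated sequences was not tested. Within the first group detection differed, since the probe of Cyp3a16 was well above background on all 6 arrays and that of Cyp3a44 on none. The 4 promoters shown are those of Cyp3a11, of this pair, and of Cyp3a59 for the other group. Capitals mark AGGTCA and AGTTCA on either strand, the half-sites that nuclear receptors such as PXR and CAR can bind.
Cyp3a11: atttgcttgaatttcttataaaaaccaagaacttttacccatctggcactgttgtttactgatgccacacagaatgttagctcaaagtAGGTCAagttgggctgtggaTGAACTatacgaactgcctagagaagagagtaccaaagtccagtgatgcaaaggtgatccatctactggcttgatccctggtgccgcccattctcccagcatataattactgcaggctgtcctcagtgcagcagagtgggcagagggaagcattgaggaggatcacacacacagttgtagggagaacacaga
Cyp3a16: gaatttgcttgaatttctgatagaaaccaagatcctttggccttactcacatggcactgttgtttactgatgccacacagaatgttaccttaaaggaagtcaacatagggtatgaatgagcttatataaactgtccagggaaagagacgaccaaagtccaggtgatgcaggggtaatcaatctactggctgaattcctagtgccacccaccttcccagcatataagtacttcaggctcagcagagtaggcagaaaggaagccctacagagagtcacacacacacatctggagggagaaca
Cyp3a44: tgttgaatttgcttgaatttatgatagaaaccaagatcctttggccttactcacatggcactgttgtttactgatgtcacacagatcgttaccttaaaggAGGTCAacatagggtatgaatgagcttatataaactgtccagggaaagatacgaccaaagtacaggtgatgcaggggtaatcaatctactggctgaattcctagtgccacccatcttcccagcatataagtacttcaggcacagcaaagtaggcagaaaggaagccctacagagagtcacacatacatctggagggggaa
Cyp3a59: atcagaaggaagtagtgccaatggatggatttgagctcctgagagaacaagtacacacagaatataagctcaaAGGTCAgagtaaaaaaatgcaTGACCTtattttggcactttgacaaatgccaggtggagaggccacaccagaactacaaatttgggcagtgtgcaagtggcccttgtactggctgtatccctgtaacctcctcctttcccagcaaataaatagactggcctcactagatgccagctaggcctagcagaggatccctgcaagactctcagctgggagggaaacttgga
Their positions are chr5:145879805-145880104 (Cyp3a11, minus strand), chr5:145469674-145469973 (Cyp3a16, minus strand), chr5:145805825-145806124 (Cyp3a44, minus strand) and chr5:146079008-146079307 (Cyp3a59, plus strand).

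AGGTCA, searched on both strands, occurred in 16.3% of 32851 promoters of the same length. In the family it was found in Cyp3a11 (first base at -162 from the start), Cyp3a44 (-150), Cyp3a25 (first match at -176), Cyp3a57 (-174) and Cyp3a59 (-177), the last 3 with 2 matches each. It was not found in Cyp3a13, Cyp3a16, Cyp3a41a or Cyp3a41b. AGTTCA occurred in 14.0% of promoters, and in the family in Cyp3a11 (-142), Cyp3a41a and Cyp3a41b (-130 in both). Paired forms with a fixed spacing (TGAACTNNNTGAACT, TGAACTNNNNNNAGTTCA and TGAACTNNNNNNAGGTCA) were in none of the 9 promoters. They were in 0, 2 and 0 of all 32851 promoters, so their absence here tells nothing particular about the family. TGTTTAC, a forkhead motif, was in 3.65% of promoters, and in the family in Cyp3a11 (-198), Cyp3a16 (-190), Cyp3a41a, Cyp3a41b and Cyp3a44 (-186 in each). A match is a run of letters in this window, and where receptors bind was not measured.

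**Figure D4:**
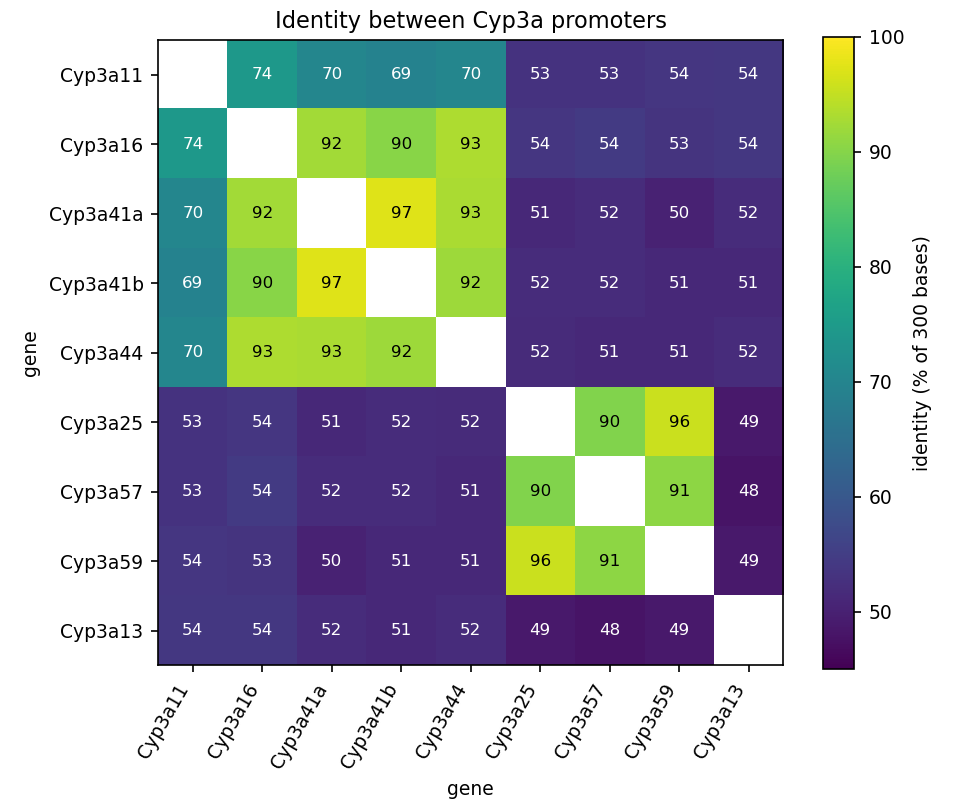
Percent identity of the 300 promoter bases, computed from the edit distance, between members of the family (rows and columns, from dark for low to yellow for high). Cyp3a16, Cyp3a41a, Cyp3a41b and Cyp3a44 form 1 bright block and Cyp3a25, Cyp3a57 and Cyp3a59 another, while Cyp3a13 stays at 54.0% or below with every member.

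The fold changes were recomputed under 15 other settings of the processing and the samples, and 0 Cyp3a probes passed under any of them. The lowest adjusted p over these settings was 0.325 for Cyp3a16, and it was 0.614 or higher for each of the other 7 probes. Cyp3a16 stayed higher in CBZ throughout, between 0.19 and 0.45. Both Cyp3a11 probes and the upstream Cyp3a13 probe also stayed higher, while Cyp3a25, the downstream Cyp3a13 probe and both Cyp3a59 probes took either sign. Not every setting could move a fold change. Changing the filter, robust eBayes with an intensity trend and the replicate block leave it as reported by construction. Median scaling and the authors' table gave the same fold changes as each other.

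**Figure D5:**
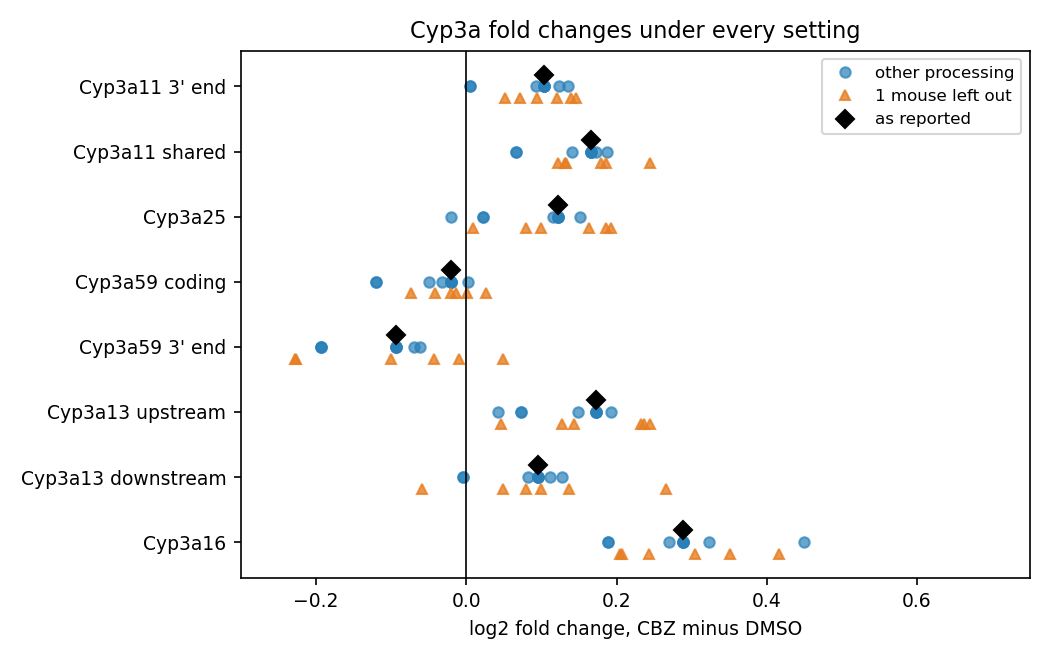
Log2 fold change, CBZ minus DMSO, of the 8 Cyp3a probes as reported (diamonds), under other processing (circles) and with 1 mouse left out (triangles). Cyp3a16 lies between 0.19 and 0.45 in every setting, and the points of both Cyp3a59 probes, Cyp3a25 and the downstream Cyp3a13 probe lie on both sides of 0.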

How the data were processed

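Whole-liver RNA of 6 mice was analysed from 1-colour Agilent arrays, 1 per mouse, with groups and replicate numbers taken from the labels. Per the file headers, scans were read by the authors in Agilent Feature Extraction 10.7.3.1 (protocol GE1_107_Sep09), and each deposited spot is an intensity, background-subtracted and detrended, on a linear scale. The authors' deposited value table holds a ratio, the processed intensity over the array's median, as tested on its values (each column has a median of 1). It has no direction.

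Control spots and spots marked as outliers (114 to 126 per array of 59305) were left out, and spots of a probe were averaged. From the log2 intensity the 75th percentile of the array was subtracted, which was 158 to 191 intensity units. Between 42.6% and 45.8% of spots per array were well above background, and array pairs correlated at 0.988 to 0.994 across probes. To be compared, a probe had to be well above background in all 3 mice of 1 group or both. Probe names followed the files, updated by accession through RefSeq for the gene lists, where a gene was represented by its brightest probe (27428 of 55681 probes matched by accession, 3483 by symbol, 507 by synonym).

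CBZ was compared with DMSO probe by probe with lmFit and eBayes of limma 3.58.1 (R 4.3.3), two-sided and without covariates. P-values were adjusted by Benjamini-Hochberg over 22377 probes, with a threshold of 0.05. Log2 fold changes are CBZ minus DMSO, ± the moderated standard error. The fit was tested on simulated data. The members and gene lists were chosen with earlier results of these data known. The rule for naming took every Cyp3a probe, every measured electron partner and sex-linked gene, per list at most 4 genes ranked by adjusted p, and the 5 genes most alike to 2 Cyp3a probes. Cyp2b9 and Cyp2a4, among others, stand on more than 1 list. Alternatives were normexp background correction (offset 50), quantile and median scaling, the authors' table, no filter or one on all 6 arrays, robust eBayes with an intensity trend, the slide row, a replicate block, leaving out each mouse, and an adjusted p under 0.10. The precision is limited by the number of arrays.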

Additional observations from a re-analysis of the deposited data

How the results depend on the processing

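No Cyp3a probe passed under any alternative, but with 8 probes and so few called over the array, a count of 0 tells little. The number of probes called over the whole array, 14 as reported, moved with almost every choice. It was 129 with normexp background correction, 7 with quantile normalisation, 133 with median scaling, 133 with the authors' deposited table, 43 with a filter on all 6 arrays, 176 with an intensity trend and robust eBayes, 7 with the slide row as a covariate and 59 at an adjusted p under 0.10. Without a filter it was 0 by limma (2613 at an unadjusted p under 0.05). With 1 mouse left out it ran from 0 to 31. Median scaling and the authors' table gave a variance common to all probes.

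The median of the Cyp3a probes was 0.0133 with median scaling and also with the authors' table, where the median of all probes was -0.106, and it ran from 0.0274 to 0.155 with 1 mouse left out. Signs turned for small values. The downstream Cyp3a13 probe was at -0.00447 with median scaling and with the authors' table, and between -0.0595 and 0.266 with 1 mouse left out. Cyp3a25 was at -0.0198 with the slide row as a covariate. The Cyp3a59 coding probe was at 0.00283 with quantile normalisation and between -0.0741 and 0.0269 with 1 mouse left out, and the Cyp3a59 3′ probe between -0.228 and 0.0485. Cyp3a57 was at -0.0159 with median scaling and with the authors' table, at -0.0608 with the slide row, and between -0.0156 and 0.156 with 1 mouse left out. Median scaling and the authors' table move every fold change by the same amount. The median of all probes went with them, from -0.00604 as reported to -0.106. The cause of the other shifts was not tested.

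No pairing of the mice by replicate number was apparent, though with 3 arrays a group these correlations cannot exclude one. Deviations of same-numbered mice from their group means correlated at -0.237, 0.0158 and 0.18 across probes, and CBZ replicate 1 correlated best with DMSO replicate 3. With the replicate block 10 probes passed over the array and 0 Cyp3a probes, with a Cyp3a median of 0.113, and Cyp2b9 passed (adjusted p = 0.0477). With 3 arrays a group the number of mice limits every value, and a probe near background such as that of Cyp3a44 carries no fold.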
